A study of Mus musculus with 1 sample.

Results

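NADPH oxidase is the enzyme complex that makes superoxide on purpose, and its subunit genes were examined in cultured mixed glia of mouse ventral midbrain (VM). The 9 member genes, Cybb, Cyba, Ncf1, Ncf4, Rac1, Rac2, Nox1, Nox4 and Noxa1, were taken by gene symbol from a table of 23282 rows, and each had 1 row. The pups were of the outbred ICR (CD-1) strain and are labelled postnatal day 5, with no allele or transgene named. The cells were grown with serum, passaged once they neared confluence, and placed by the labels in the control group of a study of the kinase SGK1. The header of the value column and the study's text name DMSO, a solvent used as vehicle, for this control. That group is 1 RNA-seq library without a replicate. Glia given the SGK1 inhibitor were not analysed here, so no difference between conditions is given, and the spread between cultures is unknown.

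The oxidase carries electrons from NADPH in the cytosol across a membrane to oxygen, which becomes superoxide. In phagocytes, microglia among them, the catalytic subunit gp91phox (Cybb, also called NOX2) sits in the membrane with p22phox (Cyba). It stays silent until the cytosolic subunits, such as p47phox (Ncf1) and p40phox (Ncf4), and a Rac GTPase move to the membrane. NOX1 and NOX4 are related catalytic subunits that are best known from epithelia, vessel walls and kidney. In midbrain, oxidants from microglial NADPH oxidase are widely studied in relation to the loss of dopamine neurons. Oxidative stress in glia was among the features that the study examined.

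The authors call the value of each gene a normalised read count, and all values summed to 27569507. A gene at 10 or more was called detected, which held for 8 of the 9 members and for 67.2% of all rows. The members together held 1612 per 1000000 of the sum. Longer transcripts collect more reads, so levels of different genes were compared as the value divided by the length of all annotated exons, in kilobases. The median on this scale was 102 per kilobase over 15434 detected genes that had a length. Of the members, 6 lay above it and 3 below it. The 6 high members were the subunits of the phagocyte enzyme and its GTPases, from Cyba at 5746 per kilobase to Rac2 at 787 per kilobase. The 3 low members were Nox1 at 19.96 per kilobase, Nox4 at 4.25 per kilobase and Noxa1, listed at 0.

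**Figure D1:**
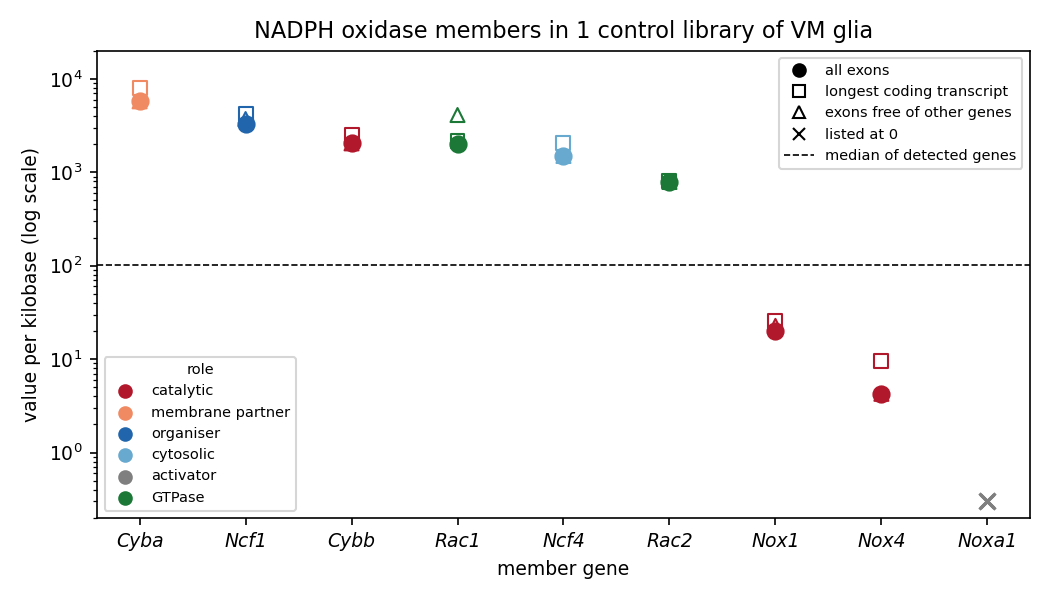
Level of each member gene in the control library (value per kilobase, log axis), coloured by role; filled circles divide by all annotated exons, squares by the longest coding transcript, triangles by exon bases free of other genes, and a cross marks a gene listed at 0. Cyba to Rac2 lie above the dashed median of detected genes (102 per kilobase), and Nox1, Nox4 and Noxa1 lie below it.

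Among the catalytic subunits, almost all of the signal came from Cybb. Its value was 11848, or 430 per 1000000 of the sum and rank 301 among all rows. Per length this was 2040 per kilobase, above 95.6% of detected genes. Cybb lies on chromosome X (9435252 to 9487771, minus strand, GRCm38), with exons that no other annotated gene overlaps. Nox1, the catalytic subunit typical of colon epithelium, had a value of 66 (chromosome X, 134086421 to 134221956, minus strand). Of its exon bases, 12.1% are also exon of Cstf2 on the opposite strand, a polyadenylation factor gene with a value of 632. Since the strand setting of the counting was not stated, reads in that stretch cannot be assigned with certainty. Nox4, a form that is active without cytosolic subunits and releases mainly hydrogen peroxide, had a value of 36 (chromosome 7, 87246096 to 87398710, plus strand). Nox1 stood above 19.6% of detected genes per length and Nox4 above 4.10%. Per kilobase, the level of Cybb was 102 times that of Nox1 and 480 times that of Nox4.

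The other catalytic genes of the family were lower still. Nox3, known from the inner ear, and Duox2 were listed at 0, and Duox1, like Duox2 a peroxide-forming oxidase of thyroid and airway, had a value of 1. Of the summed level per kilobase of these 6 catalytic genes, Cybb held 98.8%, Nox1 0.967% and Nox4 0.206%. The Cybb share was 98.6% when values were divided by the longest coding transcript.

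The catalytic genes and Cyba are shown by the 250 bases before their start site, because Cybb and Cyba were among the highest members and Nox1 and Nox4 among the lowest. RefSeq promoter entries (GRCm38.p6, from 250 bases before the start to 50 after it) were matched for 6 of the 9 members. For Cybb, Nox1 and Nox4, the 250 bases lie inside the gene span given above. The RefSeq start of these genes is thus not the outer end of that span. Both strands were searched for GAGGAA, the core bound by PU.1 and other ETS factors, for CCAAT, for TATAAA and for the GC box GGGCGG. These motifs were chosen after the sequences had been read, and the 4 motifs do not overlap each other in the sequences shown. Capitals mark matches, and each sequence runs 5′ to 3′ on the gene's strand, at chrX:9469325-9469574 for Cybb, chrX:134111855-134112104 for Nox1, chr7:87246399-87246648 for Nox4 and chr8:122432941-122433190 for Cyba.
Cybb: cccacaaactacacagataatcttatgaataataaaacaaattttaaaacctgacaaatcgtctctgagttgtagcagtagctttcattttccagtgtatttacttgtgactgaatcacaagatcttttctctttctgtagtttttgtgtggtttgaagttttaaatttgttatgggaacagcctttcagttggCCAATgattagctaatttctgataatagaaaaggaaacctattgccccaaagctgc
Nox1: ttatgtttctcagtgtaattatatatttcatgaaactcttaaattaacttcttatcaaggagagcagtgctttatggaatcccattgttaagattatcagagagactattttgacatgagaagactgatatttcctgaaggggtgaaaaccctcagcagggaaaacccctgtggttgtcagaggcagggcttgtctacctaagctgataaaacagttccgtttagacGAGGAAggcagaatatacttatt
Nox4: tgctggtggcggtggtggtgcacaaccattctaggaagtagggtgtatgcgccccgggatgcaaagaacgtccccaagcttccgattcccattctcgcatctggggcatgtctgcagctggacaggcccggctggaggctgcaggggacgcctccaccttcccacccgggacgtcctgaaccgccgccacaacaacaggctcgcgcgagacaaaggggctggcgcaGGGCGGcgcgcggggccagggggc
Cyba: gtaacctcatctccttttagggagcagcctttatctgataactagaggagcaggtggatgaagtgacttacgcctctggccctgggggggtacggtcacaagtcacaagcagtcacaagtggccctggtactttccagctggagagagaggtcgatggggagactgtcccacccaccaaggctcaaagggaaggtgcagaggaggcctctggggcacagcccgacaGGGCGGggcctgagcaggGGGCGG

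In the Cybb entry, CCAAT stood 56 to 52 bases before the start, and the reverse complement of GAGGAA lay at positions 10 to 15 after it, counted from 1 at the start. GAGGAA also occurred in the entry of Nox1, 23 to 18 bases before the start, although the level of Nox1 was low. CCAAT also occurred, as its reverse complement, in the entry of Noxa1 (57 to 53 bases before the start), which was listed at 0. The GC box stood in the entries of Cyba, Nox4 and Ncf1. Of all 32851 entries, 28.3% held GAGGAA, 37.4% CCAAT, 13.6% TATAAA and 35.7% GGGCGG in the same 300 bases. TATAAA was in none of the 6 member entries. The 250 bases before the start were 34% G or C with 1 CpG in Cybb, and 38% with 2 in Nox1. They were 67.2% with 20 CpG in Nox4 and 60% with 6 in Cyba, beside medians of 52.4% and 6 over all entries. The abundant Cybb and the scarce Nox1 thus had promoters of similar base composition, while those of Nox1 and Nox4 differed. A match is a description of letters and was not linked to binding by any measurement here.

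Cyba encodes p22phox, the membrane partner that NOX1, NOX2, NOX3 and NOX4 share and without which they are unstable. Its value was 5970 (chromosome 8, 122424776 to 122432930, minus strand), and none of its exon bases are exon of another gene. With 1039 exon bases it is the shortest member, and at 5746 per kilobase it had the highest level of the 9, above 98.4% of detected genes. Per kilobase, the level of Cyba was 2.82 times that of Cybb, and 3.22 times with the longest coding transcript as the length. The undivided values ran the other way, since the value of Cybb was larger in a transcript several times as long.

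**Figure D2:**
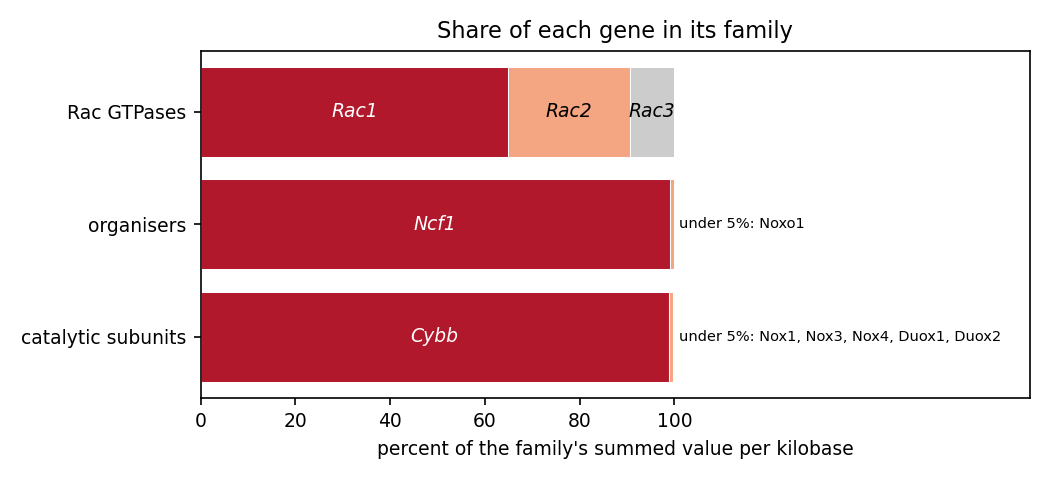
Share of each gene in the summed value per kilobase of its family in the control library (horizontal axis, percent). Cybb held 98.8% of the catalytic subunits, Ncf1 99.1% of the organisers and Rac1 65.0% of the Rac GTPases.

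Of the cytosolic subunits, Ncf1 was the most abundant. It encodes p47phox, the organiser that carries the cytosolic complex to p22phox once it is phosphorylated. Its value of 12091 was the highest of the 9 before division by length (rank 289). It lies on chromosome 5 (134220053 to 134229625, minus strand) and reached 3301 per kilobase, above 97.2% of detected genes. Exons of Gtf2ird2, with a value of 258, cover 11.1% of Ncf1 exon bases on the opposite strand. Noxo1, the organiser that pairs with NOX1, had a value of 91, and 70.4% of its exon bases are also exon of Tbl3 on the opposite strand (value 1147). Ncf1 held 99.1% of the summed level per kilobase of both organisers.

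Ncf4 encodes p40phox, which binds phosphatidylinositol 3-phosphate on phagosome membranes and strengthens oxidant production there. Its value was 3019 (chromosome 15, 78244801 to 78262580, plus strand), or 1495 per kilobase, above 93.8% of detected genes. The level of Ncf1 per kilobase was 2.21 times that of Ncf4, and the level of Cybb was 1.36 times that of Ncf4. Noxa1, the activator that pairs with NOX1 and NOXO1, was the only member that was not detected. It was listed at 0 (chromosome 2, 25085667 to 25095149, minus strand). Nox1, Noxo1 and Noxa1, which can act together in a NOX1 enzyme, thus stood at values of 66, 91 and 0. The phagocyte subunits Cybb, Ncf1 and Ncf4 stood at 11848, 12091 and 3019.

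The Rac GTPases switch the assembled enzyme on when they bind GTP, and they also steer the actin cytoskeleton. Rac1, which nearly every cell type uses, had a value of 8971 (chromosome 5, 143503634 to 143528036, minus strand) and a level of 1995 per kilobase. Rac2, which is largely restricted to blood cells and their relatives, had a value of 2443 (chromosome 15, 78559167 to 78572783, minus strand) and a level of 787 per kilobase, above 88.5% of detected genes. Rac3, which is most typical of the nervous system and is not a member, had a value of 374 and a level of 289 per kilobase. Of the summed level of the 3 genes, Rac1 held 65.0%, Rac2 25.6% and Rac3 9.42%.

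The level of Rac1 depended on how its exons were treated. Of its 4496 exon bases, 51.4% are also exon of Daglb, a lipase gene on the opposite strand with a value of 1505. Where counting drops reads in shared bases, 2187 bases remain to collect them, and the same value then amounts to 4102 per kilobase. The ratio of Rac1 to Rac2 was 2.53 over all exons and 5.21 over exon bases free of other genes. Whether such reads were dropped was not stated.

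Apart from such overlaps, the member transcripts were largely unique in sequence. No stretch of 50 bases was shared between members, so reads of Rac1 and Rac2 can be told apart at that length. Cybb and Ncf4 shared no such stretch with any annotated transcript. The shared percentage of stretches was 50.3% for Rac1, 10.4% for Nox1 and 7.45% for Ncf1, mainly with the overlapping genes named above. It lay between 0.0619% and 2.39% for the other 4.

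**Figure D3:**
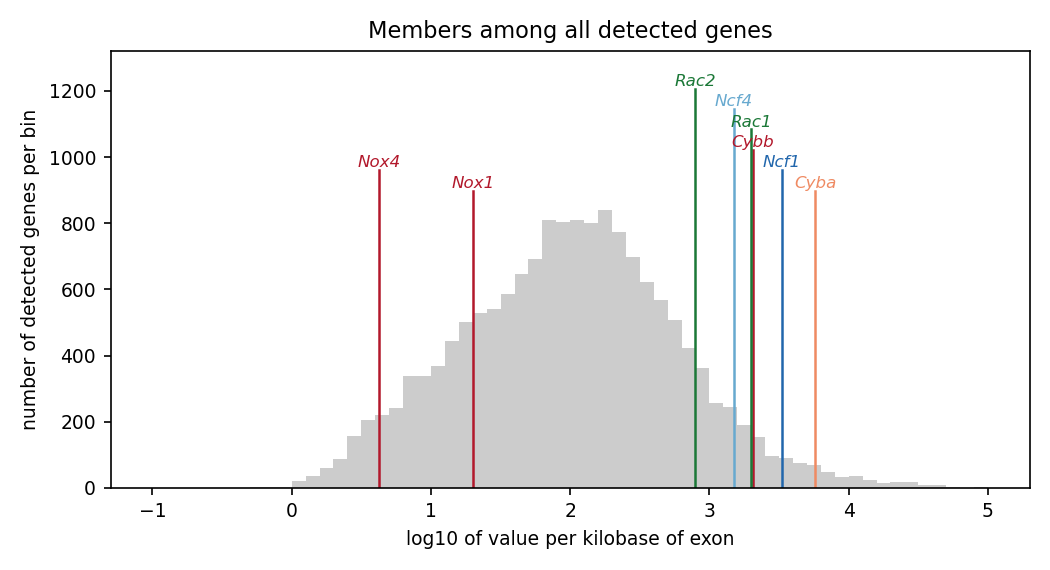
Distribution of the level of all detected genes with a length (horizontal axis, log10 of value per kilobase of exon; vertical axis, number of genes per bin), with the 8 detected members as coloured lines. Rac2, Ncf4, Rac1, Cybb, Ncf1 and Cyba stand in the upper tail and Nox1 and Nox4 in the lower part.

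In order of level per kilobase the members were Cyba, Ncf1, Cybb, Rac1, Ncf4, Rac2, Nox1, Nox4 and Noxa1. Cybb and Rac1 were neighbours at 2040 and 1995 per kilobase over all exons, but not over exon bases free of other genes, where Rac1 was at 4102. With 1 library the spread between cultures is unknown, so it cannot be said which neighbours in this order differ. As a bulk measurement, the library also cannot separate fewer cells of a type from less RNA per cell.

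Partners and maturation factors around the oxidases were uneven. Poldip2, which associates with NOX4 and p22phox, had a value of 1549 and a level of 409 per kilobase. Duoxa1, needed for DUOX1 to mature, had a value of 5, and Duoxa2 was listed at 0. Cybc1, a chaperone of the Cybb and Cyba pair, had no row under that symbol. On the list of other oxidases and subunits, 3 of the 8 genes with a row were detected (Poldip2, Rac3 and Noxo1).

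Proteins that load Rac, hold it or switch it off were all detected, 17 of 17, with a median level of 212 per kilobase. The highest were inhibitors that keep Rac in the cytosol, Arhgdia at 10676 per kilobase and Arhgdib, the form typical of blood cells, at 5137 per kilobase. They were followed by Vav1, an exchange factor of blood cells that acts downstream of phagocytic receptors, at 2242 per kilobase. Tiam1, another Rac exchange factor, was lowest at 11.2 per kilobase with a value of 113.

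The kinases and lipid enzymes that prime the cytosolic subunits were likewise detected, 19 of 19, with a median of 288 per kilobase. Mapk3, which encodes the kinase ERK1, was highest at 2270 per kilobase. Prkcd, the protein kinase C delta that can phosphorylate p47phox, stood at 889 per kilobase, and Rap1a, a small GTPase found with the membrane subunits, at 875 per kilobase. Prkcz was lowest, at 10.6 per kilobase and a value of 67.

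Receptors that can set off the phagocyte oxidase had a median level of 1089 per kilobase, and 18 of 19 were detected. Fcer1g, the signalling chain of Fc receptors, was highest at 13217 per kilobase, followed by Tyrobp (the adaptor DAP12) at 12177 and Fcgr3 at 5523 per kilobase. Both adaptors lay above Cyba, and 6 of the 19 genes lay above Cybb. The list shares Itgam, a complement receptor chain, with the microglial markers below. Agtr1a, the angiotensin II receptor linked to NADPH oxidase in vessel walls, was listed at 0.

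The transcription factors known to act on phagocyte oxidase genes were all detected, 8 of 8, with a median of 659 per kilobase. Spi1, which encodes PU.1, the myeloid factor known to bind the CYBB promoter, was highest at 2426 per kilobase with a value of 6539. Cebpb followed at 1672, Rela at 854, Hif1a at 719 and Irf8, a myeloid interferon regulatory factor, at 598 per kilobase. Nfkb1 was at 396, the haem-sensing repressor Bach1 at 137 and Irf1 at 122 per kilobase.

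**Figure D4:**
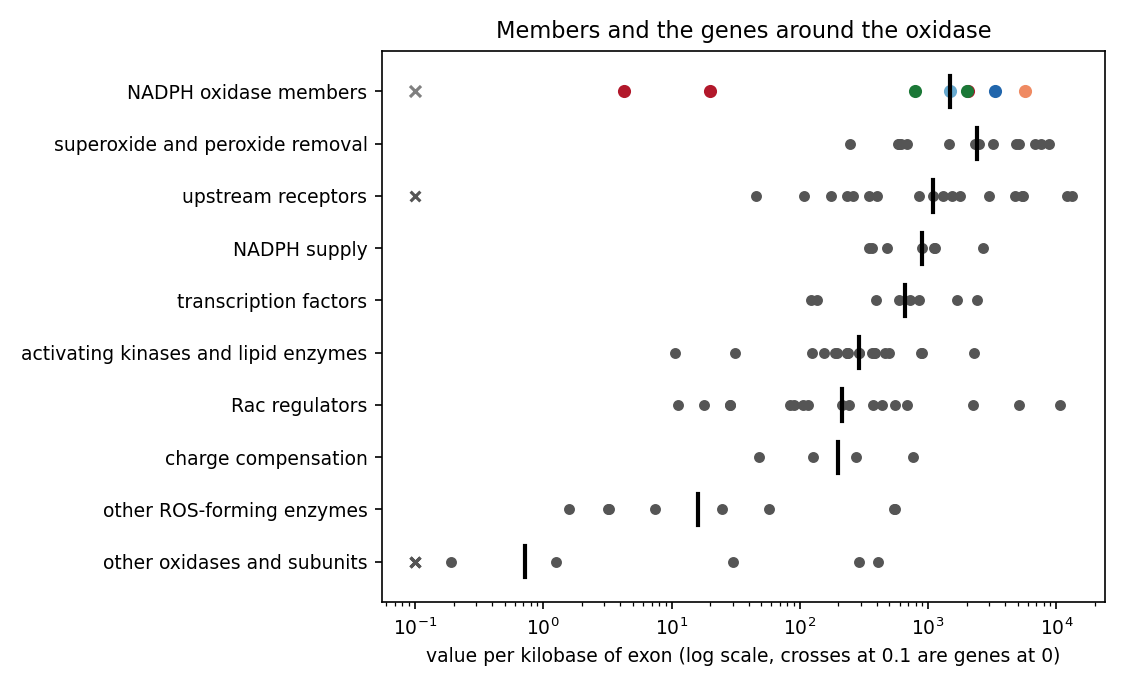
Level of each gene in the lists around the oxidase (value per kilobase of exon, log axis), 1 point a gene, with the list median as a bar, the members on top and crosses for genes listed at 0. Superoxide and peroxide removal had the highest median of the 9 lists (2389 per kilobase) and other oxidases and subunits the lowest (0.724 per kilobase).

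Superoxide production moves electrons across the membrane, and ion channels and exchangers offset that charge. Hvcn1, the voltage-gated proton channel that serves phagocyte NOX2, had a value of 2732 and a level of 767 per kilobase, close to that of Rac2. Exons of Tctn1 cover 44.2% of its exon bases on the opposite strand (value 1388). The potassium channel Kcnn4 was at 126 and the chloride-proton exchanger Clcn3 at 48.5 per kilobase.

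The oxidase uses NADPH of the cytosol. Enzymes of pathways that supply NADPH, in cytosol or mitochondria, were detected in 7 of 7 cases, with a median of 892 per kilobase. Idh2, the mitochondrial isocitrate dehydrogenase, was highest at 2666 per kilobase, followed by cytosolic Idh1 at 1137 per kilobase. The pentose phosphate enzymes G6pdx, Pgd and Pgls were at 1122, 892 and 366 per kilobase. Malic enzyme Me1 was at 479, and the mitochondrial transhydrogenase Nnt at 346 per kilobase.

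Enzymes that remove superoxide and peroxide formed the list with the highest median, 2389 per kilobase, with 14 of 14 detected. The glutathione peroxidases Gpx4 and Gpx1 were at 8802 and 7650 per kilobase, and the peroxiredoxin Prdx5 was at 6842 per kilobase. The lowest was Sod2, the mitochondrial superoxide dismutase, at 248 per kilobase. Of these 14 genes, 8 lay above Cybb and 3 above Cyba in level per kilobase.

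Other enzymes that form reactive species were mostly low, with a median of 16.1 per kilobase and 7 of 8 detected. Xdh, the xanthine oxidoreductase, was at 552 and Maoa, a monoamine oxidase, at 547 per kilobase. Nos1, the neuronal nitric oxide synthase, was at 57.5, Maob at 24.7, endothelial Nos3 at 7.502, Aoc3 at 3.25 and the neutrophil enzyme Mpo at 3.21 per kilobase. Nos2, the nitric oxide synthase induced in activated macrophages, had a value of 7 and was not detected. The level of Cybb was thus above each of these 8 genes. Of the genes named from these lists, Cebpb, Duoxa1, Duoxa2, G6pdx, Pgls, Prdx5, Nos3 and Mpo also share more than 10% of their exon bases with another annotated gene, so their values are less certain. The same holds for Itgam, which shares 68.7% with Gm49368 on the same strand, and for Nnt, which is annotated as a pair of overlapping gene models.

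The labelled glial culture was checked against markers. All 11 microglial markers were detected, with a summed value of 207688 and levels from 241 per kilobase (Ptprc) to 31364 per kilobase (C1qa). The 8 astrocyte markers were all detected too, with a sum of 39111 and levels from 142 (Slc1a2) to 4083 per kilobase (Gfap). These sums are over lists of unlike size and are not divided by length, so they do not estimate shares of cells. The study describes its VM glial cultures as mostly astrocytes with a minority of microglia, and the header of the value column begins with mAst. Of the microglial markers, 8 lay above Cybb per kilobase, as did 1 of the astrocyte, 2 of the mesenchymal and 1 of the oligodendrocyte lineage markers. Mesenchymal markers were present in 7 of 7 cases, with a sum of 64553, from Lum at 186 to Acta2 at 12067 per kilobase. The 7 markers of the oligodendrocyte lineage summed to 30582, with Sox10 lowest at 15.7 per kilobase.

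Neutrophils and monocytes use the same oxidase and could also carry these transcripts. Of 7 neutrophil markers with a row, Elane, Ltf, Camp and Ngp were listed at 0 and the sum was 142, most of it from S100a8 at 129. The 3 monocyte markers summed to 48, from Ly6c2 at a value of 1 to Ccr2 at 39. The 6 lymphocyte markers summed to 24, with Nkg7 listed at 0, and Ncr1 was highest at 2.60 per kilobase. Endothelial markers summed to 2625, of which Flt1 made up 2427, and Tek was listed at 0. Neuronal markers summed to 4906, with Stmn2 at 679 per kilobase and Syt1 at 0.720 per kilobase. Which cells of the culture carried each oxidase transcript was not tested, since the library pooled all of them.

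**Figure D5:**
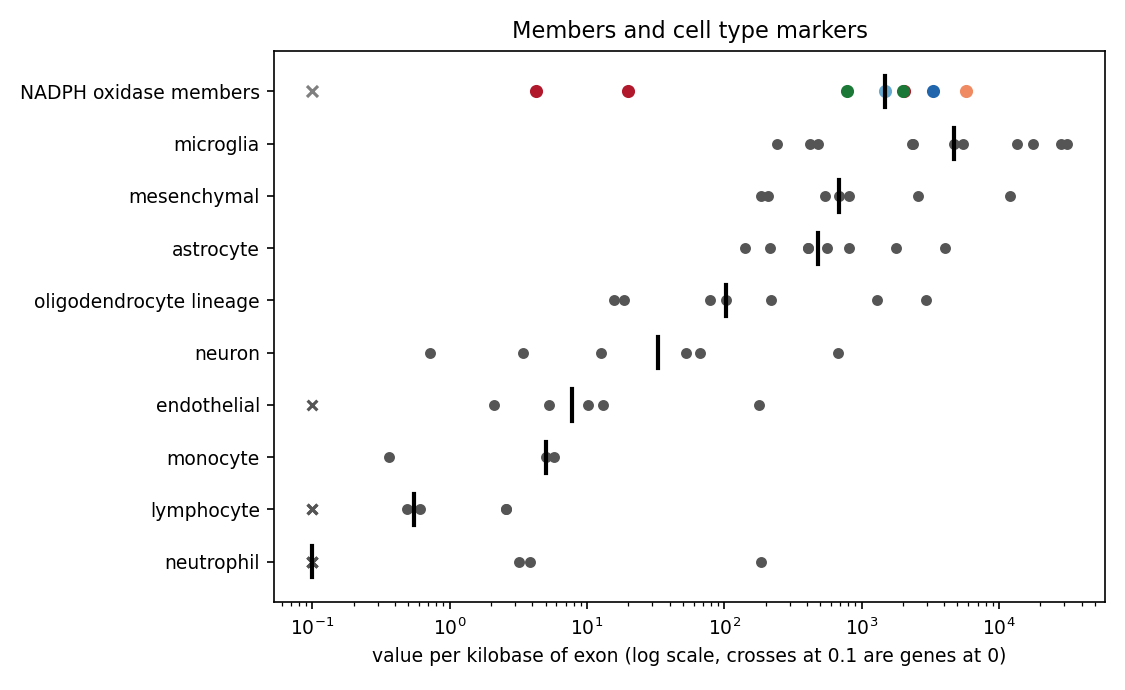
Level of each cell type marker (value per kilobase of exon, log axis), 1 point a gene, with list medians as bars, the oxidase members on top and crosses for genes listed at 0. Microglial markers had the highest median (4720 per kilobase), the 6 lymphocyte markers and most neutrophil markers lay below Nox4, and 2 of the 3 monocyte markers lay between Nox4 and Nox1.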

How the data were processed

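RNA-seq of 1 control library was analysed. Per the study's methods, the authors trimmed reads at a quality of 20, mapped them to GRCm38/mm10 with STAR and counted them with HTSeq-count on exons of NCBI RefSeq Release 105. The submitters' processing notes name TopHat and edgeR instead. The deposited values, whole numbers normalised by the authors in a way that was not stated, were handled as a score. The methods also describe FPKM values, which are already divided by length, but the study's name for the values used here is read count, and division by length assumes that scale. The strand setting and the treatment of multi-mapped reads were not stated either. Another normalisation would rescale values per 1000000, and one acting gene by gene could change the order of genes. The reads behind the values are unknown, so no interval or floor is given.

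Exon lengths, positions and overlaps came from GENCODE M21 (GRCm38), not the authors' annotation, and 22804 rows (97.9%) received a length. Other lengths, minima and sums were alternatives. Transcripts were compared in stretches of 50 and 100 bases with a procedure tested on simulated data. The members and lists were chosen with earlier results of these data known. The genes named were all members, all genes of lists of up to 10, and of longer lists the 3 highest per length, the lowest and those under 10. Of marker lists they were the highest, the lowest and those at 0. Genes that overlap members, and Itgam, were named after their values were seen. Results for some listed genes are not reported here. Python 3.11.15, numpy 2.4.6, pandas 2.3.3 and matplotlib 3.10.9 were used.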

Additional observations from a re-analysis of the deposited data

How the results depend on the processing

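The count of detected members was 8 at minima of 1 and 3 and 6 at 100, where Nox1 and Nox4 dropped out. Of all 23282 rows, 67.2% passed the minimum of 10, and 5075 were at 0, so a minimum of 1 passes most rows. Shares of all rows at 3 and 100 were not computed. Of the 15648 rows at 10 or more, 2355 lay from 10 to 49 and 1278 from 50 to 99, under the minimum of 100. Genes of the 9 related lists that were detected numbered 97 of 104 with a row, beside the 67.2% of all rows, and 91 to 100 under the other minima. With the longest coding transcript as the length, the order of the members was the same, and the ratios were 3.22 for Cyba to Cybb, 2.68 for Rac1 to Rac2, 260 for Cybb to Nox4, 2.03 for Ncf1 to Ncf4 and 0.594 for Cybb to Ncf1. Nox4 moved most, because its annotated exons span 8471 bases and its longest coding transcript 3753. With no division by length, 4 members changed place, and Cyba to Cybb turned to 0.504. The other ratios were then 3.67 for Rac1 to Rac2, 329 for Cybb to Nox4, 4.005 for Ncf1 to Ncf4 and 0.980 for Cybb to Ncf1.

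An alternative chosen after seeing the data left out exon bases shared with another gene. Here 3 members changed place, with Rac1 above Ncf1 and Cybb, and the ratios were 5.21 for Rac1 to Rac2, 2.49 for Ncf1 to Ncf4 and 0.549 for Cybb to Ncf1. The members' summed value was 1612 per 1000000 of all values, 1673 without the highest gene, 1651 without Rn45s and 1862 without the 10 highest genes. No paired analysis was possible because there was 1 library, and the lack of a replicate limits every value to it.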

Other observations

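Ncf4 and Rac2, both high members, lie on chromosome 15 with 296586 bases between them. Of 17 annotated genes in this gap, 10 had a row and 6 of these were detected, beside 67.2% of all rows. The detected genes were Csf2rb at 531 per kilobase, Kctd17 at 475, Csf2rb2 at 459, Mpst at 245, Tst at 111 and C1qtnf6 at 107 per kilobase. Tex33 and Tmprss6 were listed at 0, and Il2rb and Sstr3 had values of 3 and 7. None of the 10 reached the level per kilobase of Rac2 or Ncf4. These genes were looked at after their values were seen.

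Among low values, even numbers were more frequent than the odd numbers that follow them. In each of the 10 pairs of neighbouring integers from 2 and 3 to 20 and 21, more rows had the even value, for example 444 rows at 2 against 318 at 3, and 326 at 4 against 209 at 5. Row counts also tended to fall as values rose, and the even integer is the smaller of each pair. The fall did not hold at every step, since 318 rows were at 3 and 326 at 4. The pairs, and in part the shares below, therefore mix parity with this decline. Even values made up 56.9% of the 3077 rows from 2 to 21. They made up 46.2% of the 2559 rows from 1 to 9, where 44.4% of the integers are even. The share was 51.8% of the 2355 rows from 10 to 49 and 52.4% of the 1278 rows from 50 to 99. It was 49.5% of the 7007 rows from 100 up to but not including 1000. Whether even values are in excess beyond the decline, and what a value of 1 stands for in low genes such as Duox1, was not tested.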
